A study of Mus musculus with 6 samples.

Results

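The circadian clock genes described here are 10 genes of the cell's daily timing circuit: Arntl, Clock, Per1, Per2, Cry1, Cry2, Nr1d1, Nr1d2, Dbp and Tef. They were matched by their symbols in the array's annotation, and the list was chosen with earlier results of these data known. All 10 were found, with 20 probe sets that carry 1 symbol each, among 18193 genes and 34945 such probe sets. Gene expression was measured on Affymetrix arrays in splenic B cells of 6 mice, 1 array per mouse. Of these mice, 3 were Crebbp-deleted (labelled CBPΔ/Δ x EµBcl2) and 3 were Crebbp-floxed (CBPF/F x EµBcl2), so that all 6 carried the Bcl2 transgene, under an enhancer active in B cells. Spleen cells had been frozen and thawed, and the B cells were isolated by removing cells that carry CD43. The labels used here do not name the recombinase that deleted Crebbp, the age of the mice or the time of day at which spleens were taken.

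The clock is a feedback loop of transcription. The proteins of Arntl (BMAL1) and Clock pair and switch on genes that carry E-box sequences, among them Per and Cry genes, whose proteins return to block the pair. The nuclear receptors Nr1d1 and Nr1d2 (REV-ERBα and REV-ERBβ) repress Arntl through sequences called RORE, and Dbp and Tef are leucine zipper factors that act on genes with D-boxes. The acetyltransferase CBP, the product of Crebbp, and its paralog p300 serve as coactivators of CLOCK and BMAL1, and CBP is also the partner of CREB, which induces Per1 in answer to cAMP. In most tissues the levels of these genes change over the day, with Arntl and the Per genes peaking at different times.

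The promoters of 4 members are shown because Arntl and Per1 had the smallest p-values of the 10 in the comparison between the groups and Dbp stood lower with separate groups, while Cry1 holds the same E-box as Per1 with a difference near 0. Each is the stretch of 250 bases before a RefSeq start in the build GRCm38.p6, read 5′ to 3′ on the gene's strand. The windows of Per1 and Arntl lie inside the gene intervals given below, and that of Dbp lies partly inside. The starts of these genes used here are therefore not the outermost ends of those intervals. Capitals mark the E-box CACGTG or the RORE core AGGTCA, on either strand.
Per1, plus strand, chr11:69098699-69098948: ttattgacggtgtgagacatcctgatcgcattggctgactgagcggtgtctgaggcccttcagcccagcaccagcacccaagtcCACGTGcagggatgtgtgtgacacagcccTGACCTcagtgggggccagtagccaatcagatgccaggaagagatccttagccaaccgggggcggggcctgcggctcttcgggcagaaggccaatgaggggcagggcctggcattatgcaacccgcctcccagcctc
Arntl, plus strand, chr7:113207215-113207464: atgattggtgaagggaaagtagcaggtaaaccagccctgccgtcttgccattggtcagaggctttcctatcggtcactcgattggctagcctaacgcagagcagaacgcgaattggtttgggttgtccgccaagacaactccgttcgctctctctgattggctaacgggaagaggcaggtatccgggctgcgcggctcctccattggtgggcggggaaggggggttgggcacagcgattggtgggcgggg
Dbp, plus strand, chr7:45704997-45705246: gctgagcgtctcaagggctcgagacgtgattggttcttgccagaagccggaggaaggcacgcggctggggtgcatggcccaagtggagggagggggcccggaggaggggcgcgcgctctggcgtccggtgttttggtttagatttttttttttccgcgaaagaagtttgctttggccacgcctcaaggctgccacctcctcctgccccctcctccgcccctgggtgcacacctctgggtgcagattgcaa
Cry1, minus strand, chr10:85185055-85185304: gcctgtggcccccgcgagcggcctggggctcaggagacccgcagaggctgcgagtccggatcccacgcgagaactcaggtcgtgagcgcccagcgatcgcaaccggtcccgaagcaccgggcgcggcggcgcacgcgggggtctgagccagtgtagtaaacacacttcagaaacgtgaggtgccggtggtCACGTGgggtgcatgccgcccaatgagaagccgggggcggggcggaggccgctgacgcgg

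Promoters of 9 of the 10 members, all but Per2, were matched by symbol to the RefSeq table, which gave 14 windows because Per1, Arntl, Clock and Tef have several starts, and the windows of 1 gene can overlap. The E-box CACGTG was found in 4 of the 14 windows (the Per1 window shown above, Cry1 and both of Tef), and 6.02% of 32851 windows of this length hold it. In Per1 it begins 166 bases before the start and in Cry1 60 bases before. The RORE core AGGTCA was found in 3 windows, the same one of Per1, that of Nr1d2 and 1 of the 3 of Clock, against 14% of all windows. The D-box, searched as TTANNTAA, was in 1 Tef window, against 5.43% of all windows. The cAMP response element TGACGTCA was in 0 of the 14 (1.55% of all windows), as was the heat shock element core GAANNTTC (6.69%). All motifs were searched on both strands, and a match describes the letters only. The windows of Arntl and Dbp shown above hold none of the 5 motifs, nor does the other Arntl window or the other Per1 window. Sequence outside the windows and looser forms of the motifs were not searched.

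Among the 10 clock genes, 6 stood lower and 4 higher in Crebbp-deleted than in Crebbp-floxed B cells, where 46.6% of all genes stood lower. The test (limma, Benjamini-Hochberg adjusted p under 0.05) called 0 of the 10. Over all genes it called 142, which is 0.781% of the 18193 tested. Arntl came closest, at 67.1% of the floxed level in the deleted cells, and Per1 had the largest difference, at 57.3% of it. Arntl and Per1, both lower, were the 2 of the 10 with an unadjusted p below 0.05. That holds for 14.8% of all genes, 6.84% lower and 7.96% higher. The 2 became 1 without deleted sample 3, floxed sample 1 or floxed sample 3, when Per1 missed that threshold, and 3 without deleted sample 1 or 2. The groups did not overlap in 3 of the 10: Arntl and Dbp, lower, and Clock, higher. Over all genes 21.2% were separate in this way, 10% lower and 11.2% higher. The median difference of the 10 was −0.086 on the log2 scale and that of all genes 0.013. The median size of the difference, whatever its sign, was 0.20 for the 10 and 0.12 for all genes. It was 0.19 for the 36 other clock network genes described below. Of the 10, 9 lay above the median of probe set means, as did 10589 of the 18193 genes, and sizes were not compared at matched levels. All differences are log2 intensities of Crebbp-deleted minus Crebbp-floxed samples, each gene is represented by its brightest probe set, and levels are log2 intensities listed for replicates 1, 2 and 3.

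**Figure D1:**
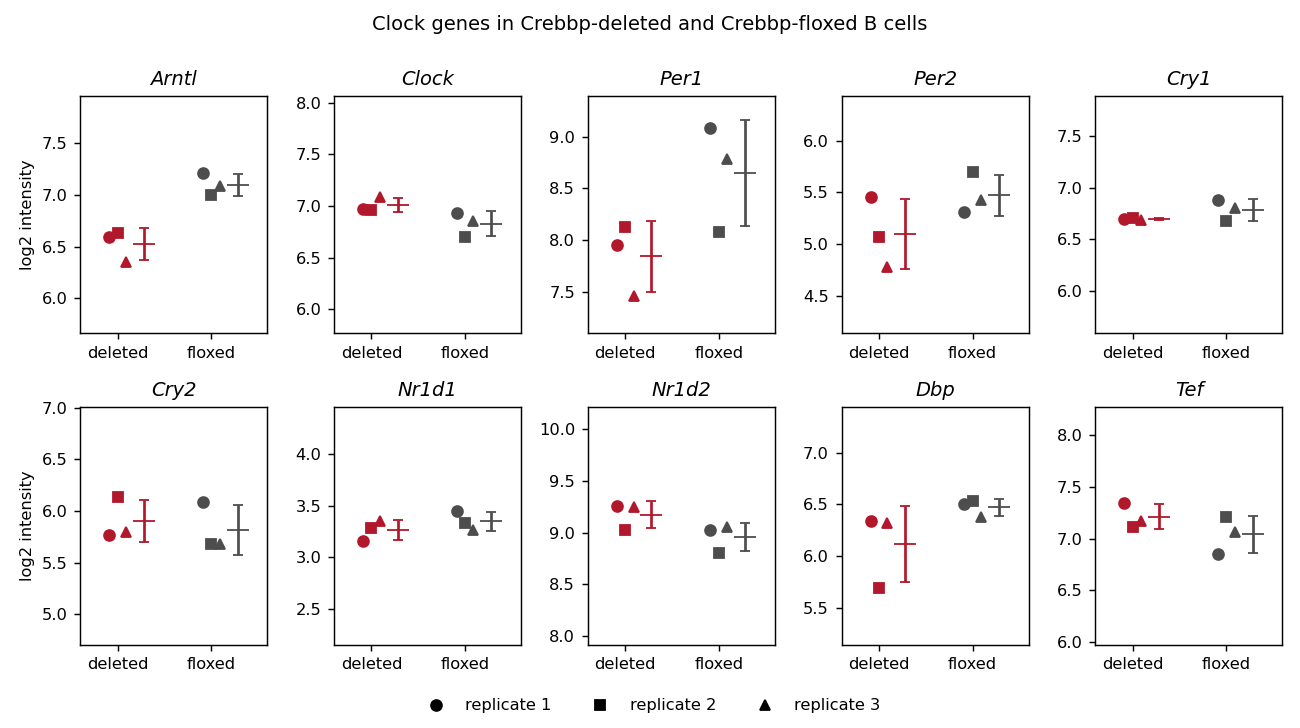
Log2 intensity of each clock gene in every sample, Crebbp-deleted at the left and Crebbp-floxed at the right of each panel, with bars for the mean and SD of 3 mice; each panel spans the same range of log2 units. Arntl stood at 6.35 to 6.63 in deleted and 7.00 to 7.21 in floxed samples, while Per1 overlapped through deleted sample 2 and floxed sample 2.

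Crebbp, the deleted gene, had log2 intensities of 9.59, 9.41 and 9.35 in deleted samples, against 10.04, 9.87 and 9.95 in floxed samples. Its difference was −0.50 ± 0.10 (SE, limma adjusted p = 0.078), so the groups were separate as the labels state them but the gene missed the threshold at this probe set. With the mean of its probe sets the difference was −0.70 (adjusted p = 0.039), and at its most variable one −0.97 (adjusted p = 0.064). The position of its probe sets along the gene was not analysed here. The 6 arrays had medians of 4.27 to 4.30, and their number, not a read depth, limits the precision. In RNA of a whole sample, fewer cells of a type and less RNA per cell cannot be told apart. From Xist and Y-linked genes, deleted samples 1 and 3 and floxed sample 1 came from males and the other 3 from females, so sex and genotype are partly mixed. With 3 samples a group the smallest two-sided permutation p is 0.1, so single genes were not tested in that way.

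Arntl, whose product BMAL1 is the one core component with no substitute in the mouse behavioural clock, lies at chr7:113178471-113314126. Its brightest probe set, 1425099_a_at, had 6.59, 6.63 and 6.35 in deleted samples, against 7.21, 7.00 and 7.09 in floxed samples. All 3 deleted samples were below all 3 floxed samples, and the gap between the groups was wider than the range within either. The means were 6.52 ± 0.15 in deleted and 7.10 ± 0.11 in floxed samples (SD, n = 3 each), a difference of −0.58 ± 0.11 (SE, 95% interval −0.84 to −0.31, limma adjusted p = 0.072). On the linear scale this was an intensity of 92.3 ± 9.58 in deleted and 137 ± 10.1 in floxed samples. The second probe set, 1457740_at, had 4.37, 4.46 and 4.18 in deleted samples, against 4.86, 4.63 and 4.69 in floxed samples, with a difference of −0.39 ± 0.11 (SE, adjusted p = 0.177 over all probe sets). It ordered the groups in the same way, and deleted sample 3 was lowest at both. These probe sets read the same gene in the same RNA and are not independent. With sex as a term the difference was −0.58 (adjusted p = 0.150), within males −0.74 and within females −0.41, where the lone sample of a group is assumed to vary like the others.

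Clock, the DNA-binding partner of BMAL1 (chr5:76209868-76305603), stood slightly higher at its brightest probe set. It had 6.97, 6.96 and 7.09 in deleted samples, against 6.93, 6.70 and 6.86 in floxed samples. The groups did not overlap, but deleted sample 2 and floxed sample 1 were only a small step apart. The difference was 0.18 ± 0.099 (SE, 95% interval −0.052 to 0.41, limma adjusted p = 0.452). Its other 3 probe sets had differences of −0.11, 0.080 and −0.089 with overlapping groups, so the 4 probe sets of Clock had no common direction.

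Among the repressors, Per1 (chr11:69095108-69109965), which is also an immediate early gene induced through CREB, had the largest difference of the 10. It had 7.95, 8.12 and 7.46 in deleted samples, against 9.08, 8.08 and 8.79 in floxed samples. Floxed sample 2 lay within the deleted range and below deleted sample 2, while floxed samples 1 and 3 stood above all others. The means were 7.85 ± 0.34 in deleted and 8.65 ± 0.52 in floxed samples (SD, n = 3 each), a difference of −0.80 ± 0.27 (SE, 95% interval −1.45 to −0.16, limma adjusted p = 0.235). Its intensity was 234 ± 52.6 in deleted and 418 ± 138 in floxed samples. The difference was −1.09 when floxed sample 2 was left out (adjusted p = 0.090) and −0.59 when floxed sample 1 was. It was −1.38 within males and −0.31 within females, and whether the sexes differ was not tested. Per1 was read by 1 single-symbol probe set.

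Per2 (chr1:91415977-91459351), the repressor whose loss shortens or stops the mouse rhythm, was dimmer and less clear. Its brightest probe set, 1417602_at, had 5.45, 5.07 and 4.78 in deleted samples, against 5.30, 5.69 and 5.42 in floxed samples. Deleted sample 1 exceeded floxed samples 1 and 3, so the groups overlapped. The difference was −0.37 ± 0.18 (SE, 95% interval −0.80 to 0.056, limma adjusted p = 0.397), and it was −0.21 without deleted sample 3. The other 2 probe sets had differences of −0.040 and −0.32, so all 3 were lower in the deleted samples and none passed the test.

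The cryptochromes, which bind PER proteins and hold BMAL1 and CLOCK inactive, had differences close to 0. Cry1 (chr10:85131700-85185054) had 6.69, 6.70 and 6.69 in deleted samples, against 6.88, 6.67 and 6.80 in floxed samples, a difference of −0.088 ± 0.091 (SE, limma adjusted p = 0.710). The deleted samples were nearly equal to each other and lay within the floxed range. The 95% interval of −0.30 to 0.12 leaves room for a fall or a rise of that size. Cry2 (chr2:92403646-92434085) had 5.77, 6.14 and 5.80 in deleted samples, against 6.09, 5.68 and 5.68 in floxed samples. Deleted sample 2 and floxed sample 1 were both high, and the difference of 0.086 ± 0.15 (SE, 95% interval −0.28 to 0.45, adjusted p = 0.850) was −0.031 without deleted sample 2. It was −0.31 within males, where floxed sample 1 was the only floxed one, and 0.46 within females, where deleted sample 2 was the only deleted one. Whether the sexes differ was not tested.

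**Figure D2:**
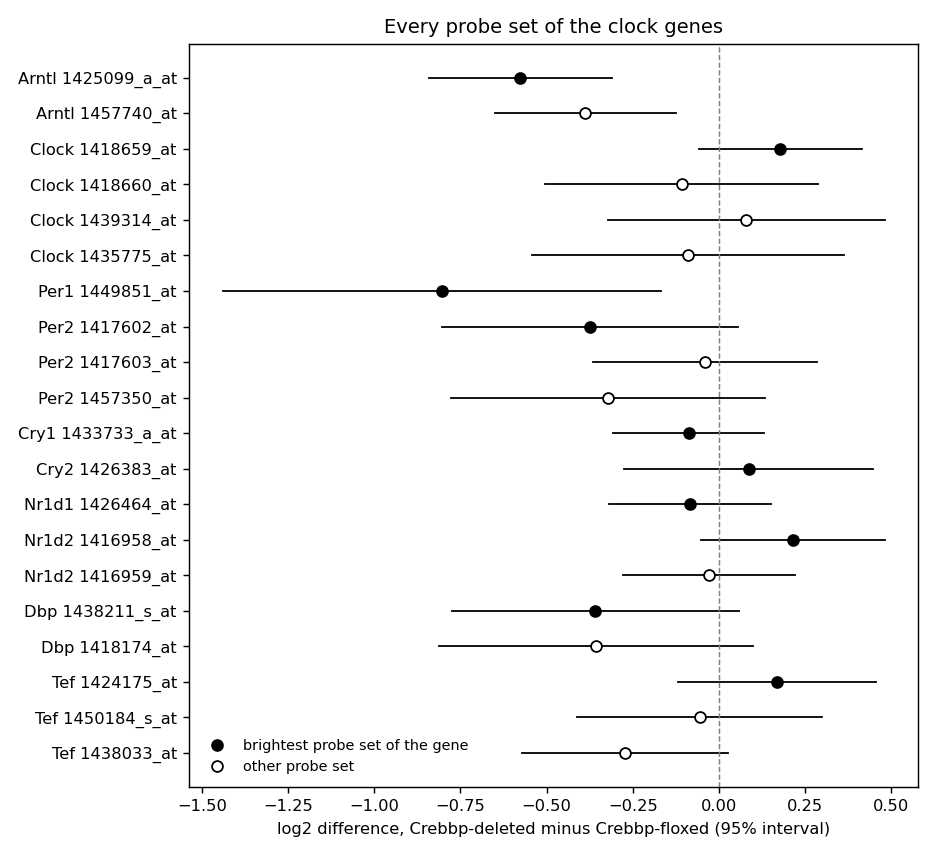
Log2 difference, Crebbp-deleted minus Crebbp-floxed, with its 95% interval, for the 20 probe sets of the 10 clock genes; filled points mark the brightest probe set of each gene. The intervals of both Arntl probe sets and of Per1 lie below 0, and the probe sets of Clock, Nr1d2 and Tef fall on both sides of 0.

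The REV-ERB receptors, which repress Arntl, were unequal in signal. Nr1d1 (chr11:98767932-98775377) had 3.16, 3.29 and 3.35 in deleted samples, against 3.45, 3.33 and 3.26 in floxed samples. These levels are below the median mean level of the array's probe sets, 4.29, and Nr1d1 is the only one of the 10 below it. Its difference was −0.083 ± 0.098 (SE, limma adjusted p = 0.752), and no detection call was used here. Nr1d2 (chr14:18204056-18239106) had 9.26, 9.03 and 9.25 in deleted samples, against 9.03, 8.80 and 9.05 in floxed samples. Deleted sample 2 lay just below floxed samples 1 and 3, and the other deleted samples were above every floxed sample. The difference was 0.22 ± 0.11 (SE, 95% interval −0.048 to 0.48, adjusted p = 0.426), and its dimmer probe set had −0.029.

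Dbp and Tef, the D-box factors, had differences of opposite sign at their brightest probe sets. Dbp (chr7:45705100-45710203), a direct target of BMAL1 and CLOCK, had 6.33, 5.69 and 6.32 in deleted samples, against 6.50, 6.54 and 6.38 in floxed samples. The groups did not overlap, but deleted samples 1 and 3 were only slightly below floxed sample 3, and deleted sample 2 was far below all others. The difference was −0.36 ± 0.18 (SE, 95% interval −0.78 to 0.059, limma adjusted p = 0.403), and without deleted sample 2 it was −0.15. With sex as a term it was −0.47 (adjusted p = 0.257), within females −0.77 and within males −0.18. The second probe set, 1418174_at, gave −0.36 ± 0.20 (SE) with overlapping groups and the same low sample, at 4.67. Tef (chr15:81802673-81826863) had 7.35, 7.12 and 7.17 in deleted samples, against 6.85, 7.21 and 7.07 in floxed samples. Its groups overlapped, with a difference of 0.17 ± 0.12 (SE, 95% interval −0.12 to 0.45, adjusted p = 0.575), and its other 2 probe sets had −0.055 and −0.27. Within males the brightest gave 0.41 and within females −0.023.

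**Figure D3:**
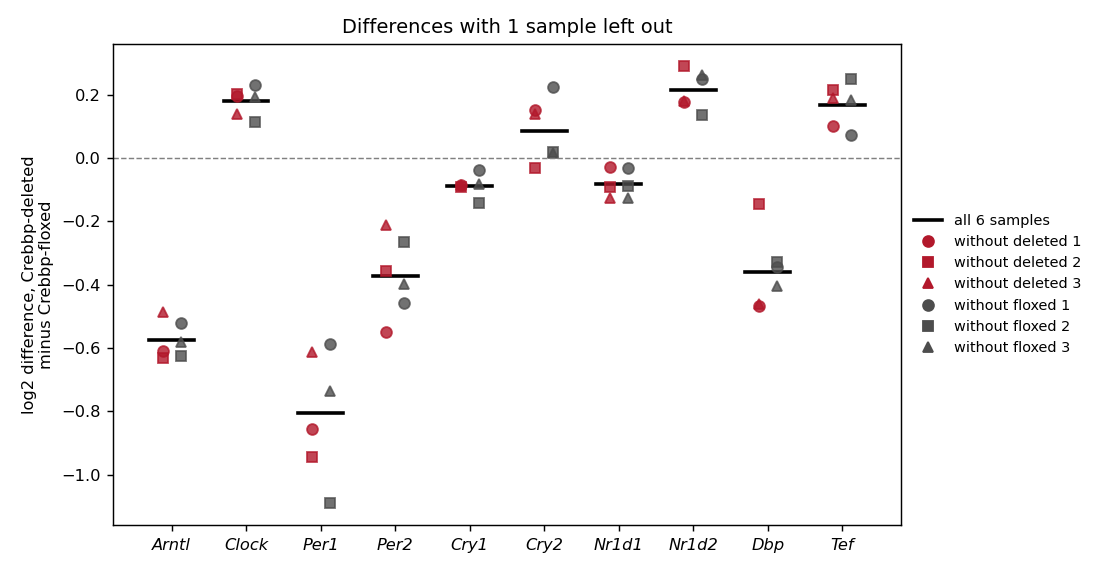
Log2 difference of each clock gene, Crebbp-deleted minus Crebbp-floxed, with all 6 samples (black line) and with each sample left out in turn (points). Arntl stayed between −0.63 and −0.49, Per1 ran from −1.09 to −0.59, and Dbp moved to −0.15 without deleted sample 2.

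The rest of the clock network was described with 5 lists, of which 36 of 42 genes were measured under a single symbol. In these limma called 0 genes, 2 stood higher and 4 lower with an unadjusted p below 0.05, and 3 were separate upward and 5 downward. These 6 and 8 of 36 are to be read against the 14.8% and 21.2% of all genes given above. The median difference was 0.014, against 0.013 over all genes.

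Among paralogs and other parts of the core loop, 5 of 6 were measured, and 1 of these 5, Arntl2, was above the median of probe set means. Npas2, a paralog of Clock, had a difference of 0.22 (adjusted p = 0.382), Arntl2, a paralog of Arntl, 0.19 (0.396) and Rora, a receptor that activates Arntl through RORE, 0.077 (0.728). None of these passed the test.

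Among the repressors at E-boxes and D-boxes, Ciart (also called Chrono), a target and inhibitor of BMAL1 and CLOCK, was the clearest. It had 5.80, 5.30 and 5.90 in deleted samples, against 6.33, 6.41 and 6.25 in floxed samples. All 3 deleted samples were below all floxed samples, and deleted sample 2 was lowest, as in Dbp. The difference was −0.67 ± 0.16 (SE, limma adjusted p = 0.126), and it was −0.48 without deleted sample 2. Within males it was −0.48 and within females, where deleted sample 2 was the only deleted one, −1.03. Bhlhe40, an E-box repressor also known as Dec1, had 8.22, 7.72 and 7.11 in deleted samples, against 8.36, 7.70 and 9.63 in floxed samples. Floxed sample 3 alone stood far above the others, the difference was −0.88 (adjusted p = 0.451), and it was −0.35 without that sample. Nfil3, which represses at D-boxes, had 6.63, 6.07 and 5.89 in deleted samples, against 5.09, 4.60 and 6.58 in floxed samples. Floxed sample 3 was again high, and the difference of 0.78 (adjusted p = 0.501) was 1.35 without it and 0.37 without floxed sample 2.

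Of 9 measured kinase and ubiquitin ligase genes, 4 stood higher and 5 lower. Btrc, a subunit of a ubiquitin ligase that marks PER proteins for breakdown, had 5.52, 5.56 and 5.28 in deleted samples, against 5.76, 6.21 and 5.94 in floxed samples. Its groups were separate, with a difference of −0.52 ± 0.14 (SE, limma adjusted p = 0.155). Gsk3b, a kinase that acts on clock proteins, had −0.20 (adjusted p = 0.471) and Csnk1e, which phosphorylates PER, had 0.21 (0.499), and neither passed.

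Among 8 measured coactivator and corepressor genes, Crebbp was lower as given above. Kmt2a, a histone H3 methyltransferase that acts with CLOCK, had 9.48, 9.47 and 9.19 in deleted samples, against 8.81, 9.09 and 8.79 in floxed samples. The deleted samples were all higher, by 0.49 ± 0.13 (SE, limma adjusted p = 0.145). Nono, which binds PER proteins, was lower by a log2 difference of −0.33 (adjusted p = 0.338) with separate groups. The Crebbp paralog Ep300 had 0.26 (0.433) with overlapping groups. Of 9 measured output genes, 5 were higher and 4 lower. The cell cycle inhibitor Cdkn1a had a difference of 0.50 (adjusted p = 0.224), Klf10, a zinc finger factor driven by the clock, −0.67 (0.337) and the tetraspanin Tspan4 0.49 (0.363).

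**Figure D4:**
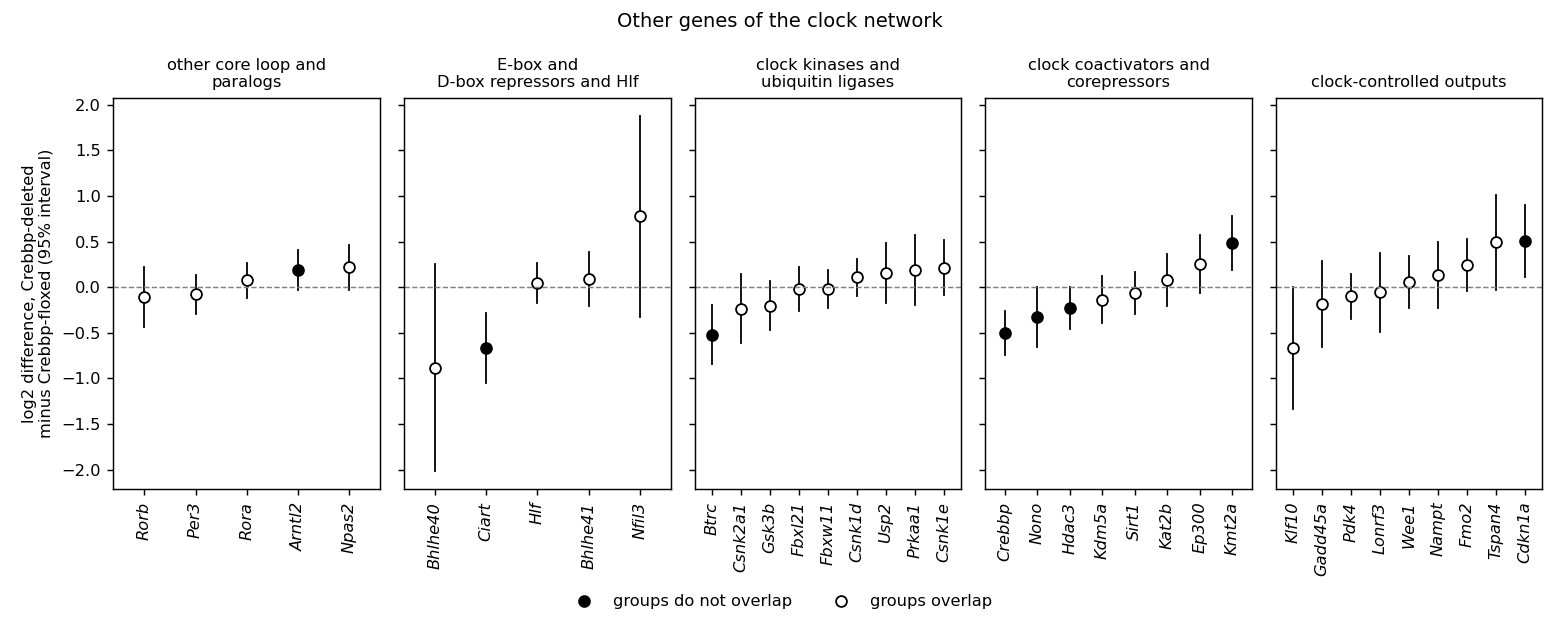
Log2 difference, Crebbp-deleted minus Crebbp-floxed, with its 95% interval, for the 36 measured genes of the 5 other clock lists; filled points mark genes whose groups do not overlap. Ciart, Btrc and Crebbp lie lowest among the filled points, at −0.67, −0.52 and −0.50, and Cdkn1a and Kmt2a highest, at 0.50 and 0.49.

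Per1 can also be set by glucocorticoids and by cAMP through CREB, and genes with those inputs were listed too. Of 9 glucocorticoid-induced genes limma called 0 and had 1 at an unadjusted p under 0.05, with a median difference of −0.11. This was Ddit4, an inhibitor of mTORC1, with 8.28, 9.71 and 8.78 in deleted samples, against 10.77, 10.14 and 9.52 in floxed samples (difference −1.22, adjusted p = 0.233). Its groups overlapped through deleted sample 2 and floxed sample 3. Errfi1, an inhibitor of the EGF receptor, had 0.22 and the zinc finger factor Klf9 had −0.40, with adjusted p-values of 0.575 and 0.621.

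Of 10 immediate early genes that CREB can induce, 5 were higher and 5 lower, limma called 0, and 0 had an unadjusted p under 0.05. Egr1 had a difference of 0.68 (adjusted p = 0.352) and Nr4a2 one of −0.69 (0.378). Crem, which encodes CREB-related factors, had 7.93, 8.40 and 6.97 in deleted samples, against 9.64, 7.25 and 9.01 in floxed samples. As for Per1, floxed samples 1 and 3 were the highest and deleted sample 3 the lowest, and the difference was −0.87 (adjusted p = 0.567). No other gene of this list had this full pattern, and Egr1 was highest in deleted sample 3 (11.16). Bhlhe40, which is not in this list, had the pattern too. The share of all genes with it was not counted.

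Other gene groups differed between the same samples, and their part in the clock differences was not tested. All 12 measured heat shock genes were higher in the deleted samples, and limma called 4: Dnaja4, Bag3, Hsph1 and Hspb1, chaperones and co-chaperones that rose by 3.21, 2.80, 1.39 and 3.27 log2 units. The summed intensity of this list was 34145 to 43642 in deleted and 16734 to 26084 in floxed samples. All 10 plasma cell markers were higher, 1 of them called, with sums of 12610 to 19693 in deleted and 6478 to 7249 in floxed samples, and deleted sample 3 was highest. All 12 macrophage and monocyte markers were higher, by 0.021 to 2.11 log2 units, with 0 called and 8 at an unadjusted p under 0.05. Their sums overlapped, at 1562 to 3626 in deleted and 518 to 1677 in floxed samples. Over all genes limma called 0.781%, and 7.96% were higher with an unadjusted p under 0.05. The 7 measured of 8 B cell markers summed to 16320 to 17466 in deleted and 19722 to 22811 in floxed samples. Of these 7, 6 were lower and 1 higher, and 2 had a limma unadjusted p under 0.05. Only Cd79a was called, and it fell by 1.11 log2 units. Ms4a1 and Cd79b, at log2 levels above 12 in every sample, had differences of −0.17 and −0.070. T cell sums were 237 to 247 in deleted and 166 to 265 in floxed samples, NK cell sums 114 to 158 and 97.1 to 213, and neutrophil sums 90.5 to 636 and 101 to 467, with 0 members called or at an unadjusted p under 0.05. Erythroid sums were 38.7 to 156 in deleted samples, with deleted sample 3 alone high, and 40.6 to 47.2 in floxed samples. No intensity in the table is 0; the lowest is 2.96.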

How the data were processed

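Splenic B cells of 3 Crebbp-deleted and 3 Crebbp-floxed mice were compared. The authors deposited 1 intensity per probe set and array; per the submitters' processing notes these come from RMA, which corrects background, equalises quantiles and summarises probes, in a version not given in the sources used here. Values run from 2.96 to 17022, so they were read as linear intensities and log2-transformed, with no further normalization.

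Of 45101 probe sets, 932 had several symbols and 9211 none in the platform's annotation; of the array's 64 control probe sets 13 had a single symbol and were left out, and 34945 single-symbol probe sets remained. Entrez IDs of 34741 were found in a RefSeq table of GRCm38.p6, with 0 symbols changed. The brightest probe set by its mean over the 6 samples stands for each gene, with no filter on dim ones. The comparison was fitted with lmFit and eBayes of limma 3.58.1 (R 4.3.3, two-sided, no covariate), adjusted by Benjamini-Hochberg over 18193 genes with a threshold of 0.05. Probe sets were tested in a fit over all 34945. The procedure was also run on simulated data with independent noise, and the share of true differences it recovered is not reported here. Arrays have no read depth.

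The members, the 16 gene lists and the tests were chosen with earlier results of these data known. The text names all members, Crebbp, and of each other clock, hormone, CREB or heat shock list the genes past the threshold or else the 3 with the smallest p; Ep300, Cd79a, Ms4a1 and Cd79b were added after their values were seen. Promoters are RefSeq's. The 20 alternatives covered normalization, log offset, dim genes, probe sets, limma settings, threshold, sex read from Xist and Y-linked genes, the replicate block and leaving out each sample. Figures used matplotlib 3.10.9 in Python 3.11.15.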

Additional observations from a re-analysis of the deposited data

How the results depend on the processing

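Of the 20 alternatives 19 left the count of clock genes called at 0, and at a threshold of 0.1 it was 1, Arntl, with 1 other clock network gene, Crebbp, and 449 genes in all. With the mean of probe sets 1 other clock network gene passed, again Crebbp (−0.70, adjusted p = 0.039). Over the alternatives the adjusted p of Arntl ran from 0.064 to 0.744 and its difference from −0.74 to −0.41; those of Per1 ran from 0.090 to 0.924 and from −1.38 to −0.31. The directions of Arntl, Per1, Per2, Cry1, Nr1d1, Nr1d2 and Dbp held in every alternative that tested them; the filter on dim genes left Nr1d1 out. Tef turned to −0.053 with the mean of probe sets, to −0.27 with the most variable probe set and to −0.023 within females. It was 0.17 with all samples, 0.41 within males and 0.072 without floxed sample 1. Clock turned to −0.089 with the most variable probe set. Cry2, at 0.086, turned to −0.31 within males, against 0.46 within females, and with 1 sample left out it ran from −0.031 (without deleted sample 2) to 0.22 (without floxed sample 1). Dbp was −0.77 within females, −0.18 within males and −0.47 with sex as a term. The number of clock genes at an unadjusted p under 0.05 was 2 of 10 in the main fit. It was 1 without deleted sample 3, floxed sample 1 or floxed sample 3, and 3 with sex as a term or without deleted sample 1 or 2. Where this number stayed the same, the genes behind it were not Arntl and Per1 in every alternative. The count over all genes, 142, was 37 with sex as a term and 0 within males and within females (limma, with 1798 and 1237 genes at an unadjusted p under 0.05, against 2693). Leaving out 1 sample gave 0 (without floxed sample 1, with 1990 at an unadjusted p under 0.05) to 226 (without floxed sample 3), and 16, 45 and 62 without deleted samples 1, 2 and 3, while the clock count stayed at 0. These fits rest on fewer samples. The cause of the other changes was not tested.

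With the replicate number as a block 126 genes passed, 0 clock genes and 0 other clock network genes among them, with an adjusted p of 0.110 for Arntl. Same-numbered samples correlated in their deviations from the group means at 0.0331, 0.104 and 0.00591. Deleted samples 1 and 2 correlated best with the floxed sample of their own number, and deleted sample 3 with floxed sample 1 (0.079). Each best match was also of the same sex, so these correlations cannot settle whether the numbers mark pairs. The main fit did not take them as pairs.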

Other observations

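Among the other 10588 genes above the median of probe set means, those whose log2 levels over the 6 samples were most like Arntl's were H2bc21, Rap1b and Ddx23, with Pearson r of 0.994, 0.993 and 0.992. For Per1 they were Taf5l, Ankrd49 and Srsf4, with r of 0.998, 0.996 and 0.994. With 6 samples 122 genes reached an r over 0.95 with Arntl and 92 with Per1, so these values describe the 6 arrays only.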
